A study of Mus musculus with 6 samples.

Results

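Mitosis and cytokinesis genes encode the proteins that a cycling cell makes in order to divide: the mitotic cyclins and kinases, the spindle checkpoint, the spindle kinesins, the chromosomal passenger complex, centromere proteins, condensin and the cytokinesis machinery. They were followed in C2C12 myotubes given the saturated fatty acid palmitate. The list held 43 genes, chosen by name, and every probe set whose annotation gave a single listed symbol was taken. Of these genes, 41 had such a probe set (77 probe sets in all, among 20380 with a single symbol), and Ccnb1 and Cdca8 had none in the annotation used here. All 41 had a probe set bright enough to be tested, among 7931 genes tested.

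C2C12 is an established mouse myoblast line that fuses into contractile myotubes when serum is lowered. Cells of both groups were grown with 20% fetal bovine serum and then differentiated for 5 days in 2% horse serum. The palmitate group (3 arrays) then had 500 µM palmitate for 16 h, bound to fatty acid-free bovine serum albumin (BSA), and the control group (3 arrays) had 1% BSA. The labels number the replicates without naming separate cultures, so the spread behind each p-value is that of these arrays and may be only technical.

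Nuclei inside a myotube have left the cell cycle, and differentiated C2C12 cultures usually hold mononucleated cells beside the myotubes. Transcripts of mitotic genes are made mostly in G2 and mitosis, after those of DNA replication in S phase. In resting cells the DREAM complex keeps both sets silent, and in cycling cells B-MYB and FOXM1 switch the mitotic genes on through the promoter element called CHR. These arrays measured RNA of whole cultures, so fewer cycling cells and less RNA per cycling cell cannot be told apart.

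Signals were MAS 5.0 intensities on a linear scale, and a signal says nothing of the level of one gene against another. The 2% trimmed mean lay between 1500.5 and 1500.56 on all 6 arrays. Arrays of a group correlated at 0.943 to 0.959 and arrays of different groups at 0.883 to 0.910 over the 13575 probe sets tested. BSA replicate 1 and palmitate replicate 2 shared an end of the second principal component, which held 17.7% of the variance. Without both arrays the count of mitotic genes that fell was again 26, but not of the same genes. Kif20a and Kif23 were no longer called, and Racgap1 and Ect2 were. The 9 hybridisation control probe sets were brighter with palmitate (log2 signal 13.04, 13.10 and 13.31) than with BSA (12.74, 12.97 and 12.73). Scaling the arrays to them lowers every log2 fold change by 0.33, turns 1172 higher and 1437 lower probe sets into 404 and 3169, and moves the share of higher calls from 44.9% to 11.3%.

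The cultures were checked against markers of myotubes and of other cells. All 23 myotube markers were bright enough to be tested, and 1 fell, the caveolin gene Cav3 (log2 fold change -0.83 ± 0.20 SE, adjusted p = 0.0134), while 0 rose (3 lower and 0 higher at an unadjusted p under 0.05). Over all genes 12.3% were lower and 7.92% higher at an adjusted p under 0.05 (limma), and 19.8% and 13.7% at an unadjusted one. After hybridisation control scaling 9 of the 23 myotube markers were lower and 0 higher, beside 26.4% of all genes lower. The summed signal of the myotube markers lay between 269471 and 406906 with BSA and between 292601 and 313322 with palmitate. Myog, the myogenic factor of differentiation, gave 25800, 19606 and 16098 with BSA and 19465, 20416 and 19678 with palmitate, so the groups overlapped. Of 11 measured markers of myoblasts and reserve cells, 4 fell and 0 rose. The summed signal of all 14 listed was 20573 to 23453 with BSA and 14096 to 16385 with palmitate. Myod1 was the clearest, at -1.33 ± 0.16. All 7 measured fibroblast markers fell (Col1a1 -2.31 ± 0.19, Pdgfrb -2.97 ± 0.19). The summed signal of all 10 listed was 114187 to 137594 with BSA and 33244 to 40253 with palmitate. The other 3 of the 10 listed (Lum, Thy1 and Tcf21) were below the filter, and which cells made the RNA of the 7 was not tested. No marker of these lists was at 0 on any array, but a signal above 0 does not show detection, and detection calls were not among the values used. Macrophage markers were dim (7 of 10 below the filter, Ptprc among them), as were endothelial markers (9 of 10, Pecam1 and Cdh5 among them). No gene of either list passed in limma (1 macrophage and 0 endothelial markers higher at an unadjusted p under 0.05). The 1 was Csf1r (1.26 ± 0.47, adjusted p = 0.0805). Summed over all 10 listed, macrophage markers gave 2135 to 2902 with BSA and 3045 to 3150 with palmitate, higher without overlap. Endothelial markers gave 1031 to 1322 and 1164.5 to 2365. The part of these shifts in the results below was not tested.

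Of the 41 mitosis and cytokinesis genes measured, 26 (63.4%) were lower with palmitate at an adjusted p under 0.05 (limma, Benjamini-Hochberg over all probe sets), and 0 were higher. Over all 7931 genes, 12.3% were lower and 7.92% higher by the same rule. The falls ran from 1.62-fold to 4.57-fold with a median of 2.38-fold, and 19 of the 41 were at least 2-fold lower, against 6.19% of all genes. The median log2 fold change was -1.00, beside -0.051 over all genes, and 39 of 41 values were below 0, beside 54.1% of all genes. All 3 palmitate arrays lay under all 3 BSA arrays for 30 of the 41 genes, where 22.4% of all genes showed this, and above them for 0, beside 15.9% of all genes. At an unadjusted p under 0.05 there were 32 lower and 0 higher, beside 19.8% and 13.7% of all genes. Leaving out any single array left 18 to 24 lower (18 without BSA replicate 2), and scaling to the hybridisation controls gave 33, beside 26.4% of all genes. The 7 gained by that scaling were Plk1, Bub3, Cenpa, Smc4, Racgap1, Ect2 and Foxm1.

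**Figure D1:**
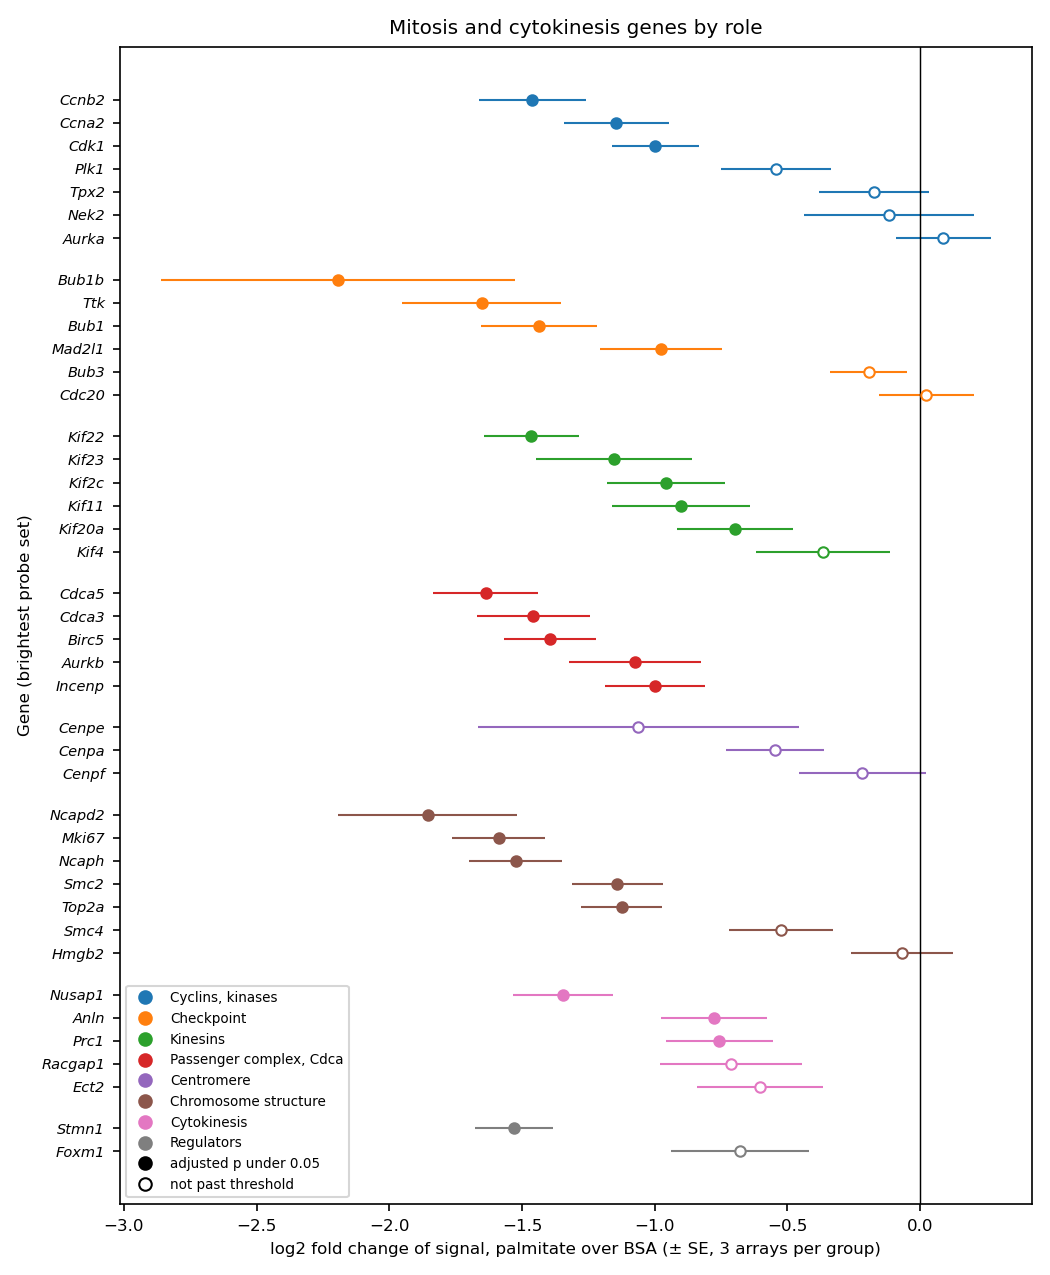
Log2 fold change of signal, palmitate over BSA (horizontal axis), for each of the 41 genes by its brightest probe set, coloured by role; bars are the SE from limma with 3 arrays per group, filled points passed at an adjusted p under 0.05 and open points did not. All 5 genes of the passenger complex group lie near or below -1.00, while Aurka, Cdc20 and Hmgb2 lie near 0.

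Seen array by array, each BSA array was above each palmitate array. The mean of the genes' log2 signals, each centred on its own mean over the 6 arrays, was 0.30, 0.59 and 0.54 on the BSA arrays and -0.52, -0.47 and -0.43 on the palmitate arrays. BSA replicate 1 was the lowest control, and the highest signal of a gene fell on BSA replicate 2 for 20 genes, on BSA replicate 3 for 16 and on BSA replicate 1 for 3. The remaining 2 genes, Aurka and Cdc20, were highest on palmitate replicate 2.

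**Figure D2:**
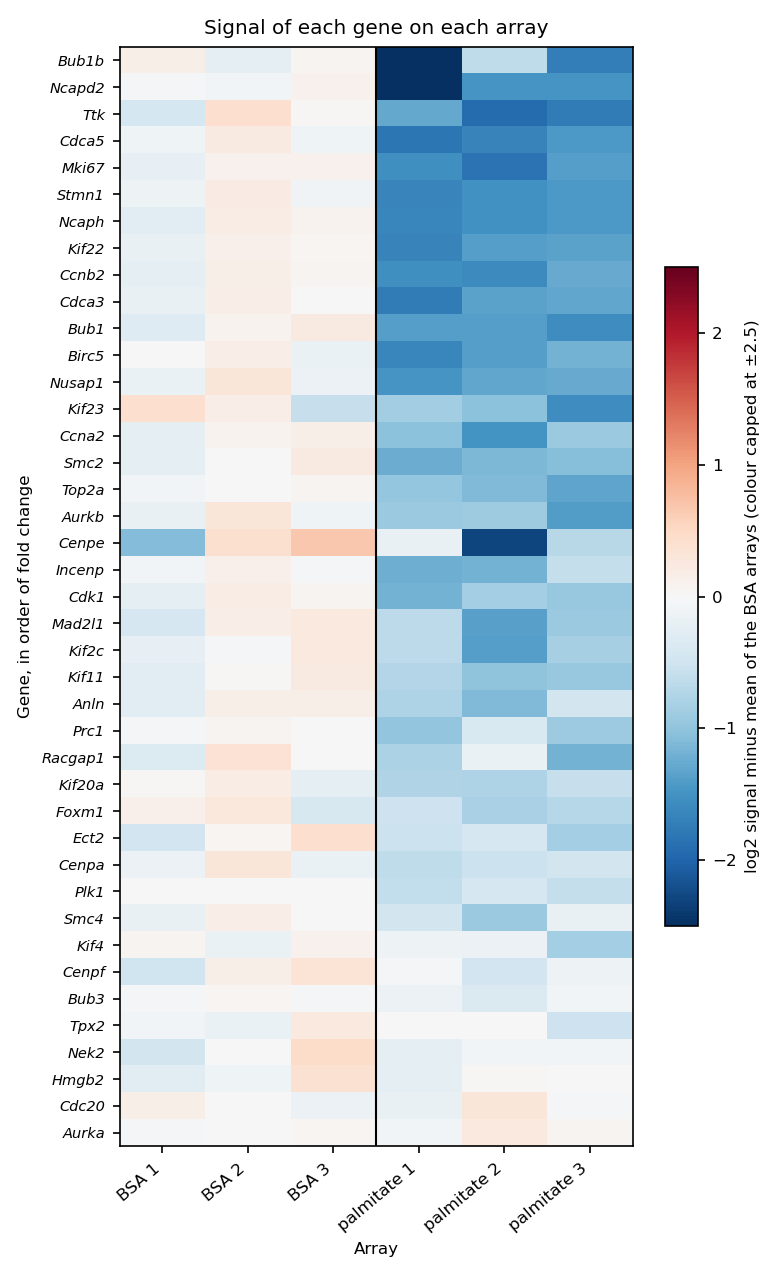
Log2 signal of each gene on each of the 6 arrays, minus the gene's mean over the BSA arrays (colour, capped at 2.5 either way); genes run from the largest fall at the top to Aurka at the bottom. The palmitate columns are blue for most genes and pale for the genes at the bottom, and palmitate replicate 1 is darkest for Bub1b and Ncapd2.

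Promoters of these genes are shown because CHR and the CCAAT box are promoter elements found in many mitotic genes. RefSeq promoters (GRCm38.p6, 250 bases before to 50 after the start) were found for 35 of the 43 genes. Those of Ccna2, Tpx2, Kif20a, Aurkb, Incenp, Smc4, Foxm1 and Stmn1 were missing. The 150 bases before the start are printed 5′ to 3′ in the direction of transcription for the strongest call of the cyclin, checkpoint and passenger groups (Ccnb2, Bub1 and Cdca5). Cdk1 and Kif22, which fell, and Cdc20, which did not pass, were added after their values were seen. Capitals mark TTTGAA (the CHR core) and CCAAT, or the same read on the other strand (TTCAAA and ATTGG).
Ccnb2: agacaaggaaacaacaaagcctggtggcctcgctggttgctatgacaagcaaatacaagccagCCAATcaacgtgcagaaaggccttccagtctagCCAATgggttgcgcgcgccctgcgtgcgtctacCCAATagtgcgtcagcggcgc
Bub1: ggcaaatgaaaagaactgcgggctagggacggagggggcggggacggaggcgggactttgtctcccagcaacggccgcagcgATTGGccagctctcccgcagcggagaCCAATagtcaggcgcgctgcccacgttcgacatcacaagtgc
Cdca5: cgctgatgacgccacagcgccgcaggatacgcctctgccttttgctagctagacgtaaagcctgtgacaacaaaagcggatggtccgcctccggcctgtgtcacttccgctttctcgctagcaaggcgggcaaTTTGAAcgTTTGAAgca
Cdk1: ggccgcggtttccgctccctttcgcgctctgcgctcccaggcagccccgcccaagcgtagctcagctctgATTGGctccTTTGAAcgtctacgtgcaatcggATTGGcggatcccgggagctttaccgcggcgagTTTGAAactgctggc
Kif22: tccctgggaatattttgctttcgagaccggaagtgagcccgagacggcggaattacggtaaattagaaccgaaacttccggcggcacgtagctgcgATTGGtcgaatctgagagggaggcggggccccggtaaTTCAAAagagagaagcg
Cdc20: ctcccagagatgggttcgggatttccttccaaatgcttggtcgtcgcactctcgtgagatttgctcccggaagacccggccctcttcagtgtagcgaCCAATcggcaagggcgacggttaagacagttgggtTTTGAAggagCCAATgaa
Ccnb2 (chr9:70421555-70421704, minus strand) had 3 CCAAT boxes, at 87, 54 and 21 bases before the start. Its copies of TTTGAA lay outside the printed bases, at 167 before the start and at base 5 after it. Bub1 (chr2:127831860-127832009, minus strand) had CCAAT boxes at 68 and 42 bases and no TTTGAA in the window. Cdca5 (chr19:6084947-6085096, plus strand) held 2 copies of TTTGAA, at 17 and 9 bases, and no CCAAT. In Cdk1 (chr10:69352913-69353062, minus strand) the copies of TTTGAA were at 71 and 15 bases, with CCAAT boxes at 80 and 48. Kif22 (chr7:127042421-127042570, minus strand) had both motifs in the reverse reading, TTCAAA at 17 bases and ATTGG at 54. Cdc20 (chr4:118437344-118437493, minus strand) had them in the forward reading, TTTGAA at 18 bases and CCAAT at 53 and 8.

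Counted over both strands of the 300-base window, 27 of the 35 genes (77.1%) had TTTGAA, 28 (80.0%) had CCAAT and 24 (68.6%) had both. Among 17492 protein-coding genes in the same table the shares were 18.5%, 42.3% and 8.37%. In 24 of the 27 genes a TTTGAA began within 50 bases of the start, and matches of the motifs overlapped each other in 1 place. Genes that fell and genes that did not pass both held the motifs. Of the 21 genes with a promoter that fell, 16 had TTTGAA and 14 had CCAAT, and of the 12 with a promoter that did not pass, 10 had TTTGAA and 12 had CCAAT. Birc5, Ncaph, Nusap1 and Mad2l1 fell and showed neither string in this window. A match is a string of letters and not evidence of binding.

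**Figure D3:**
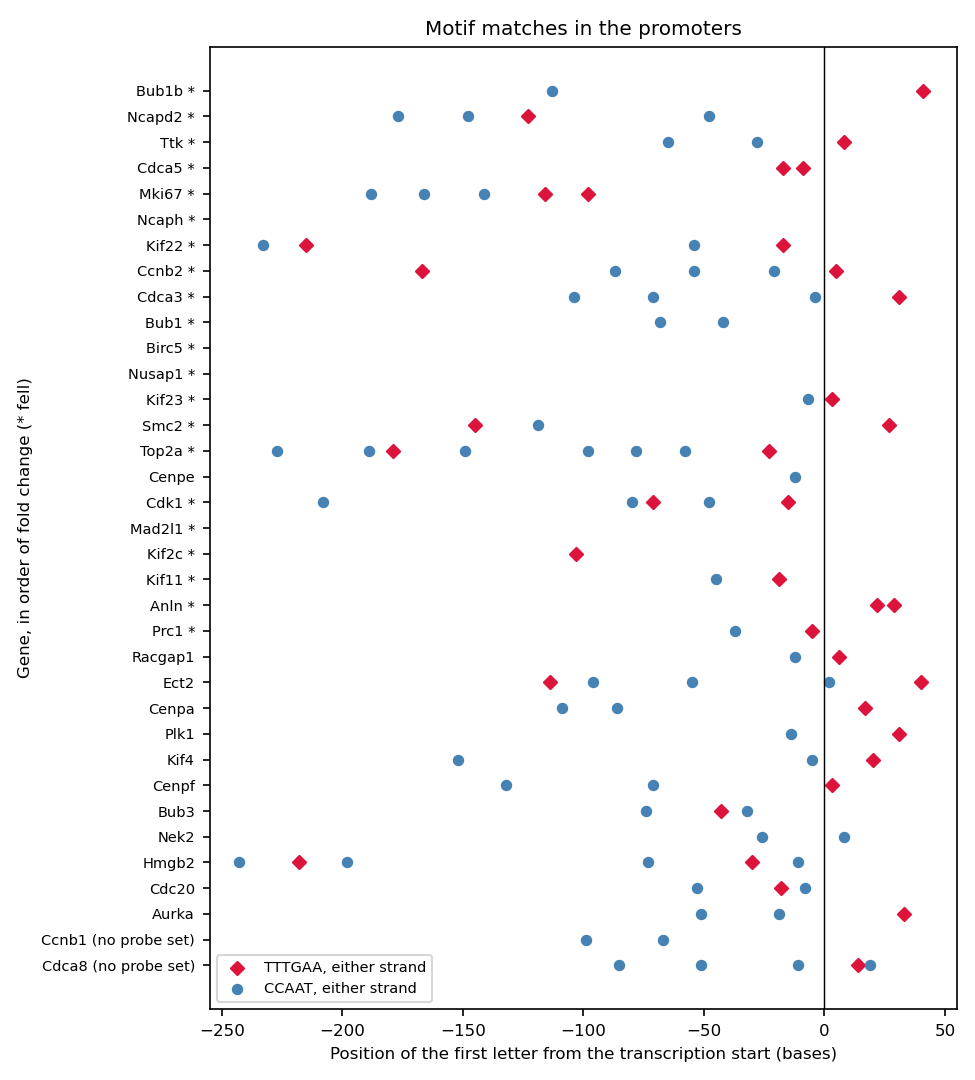
Position of each TTTGAA (diamonds) and CCAAT (circles) on either strand, in bases from the transcription start, in the first RefSeq promoter of 35 genes; genes run from the largest fall at the top, those that fell carry a star, and the last 2 had no probe set. Diamonds gather within 50 bases of the start in genes that fell and in genes that did not pass.

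Mitotic cyclins and the kinase they activate fell, while Plk1, Aurka, Nek2 and Tpx2, counted in the same group, did not pass. Of 7 measured genes of this group, 3 fell and 0 rose (median -0.54). Ccnb2, a B-type cyclin that brings Cdk1 into mitosis, gave 1691, 2179 and 2058 with BSA and 682, 647 and 823 with palmitate. The groups lay far apart, at a log2 fold change of -1.46 ± 0.20 (SE, adjusted p = 0.000450), and its 3 CCAAT boxes are printed above. Cdk1, the catalytic kinase of mitotic entry, gave 6044, 8122 and 7463 against 3143, 3964 and 3696, or -1.00 ± 0.16 (adjusted p = 0.00131). Ccna2, the cyclin of S and G2 phase, had signals of 2815, 3530.2 and 3651 against 1630.1, 1177 and 1747 (-1.15 ± 0.20, adjusted p = 0.00184). A second, dimmer probe set of Ccna2 gave 1832, 3134 and 2594 against 1634, 1949 and 1660.2, where the groups overlapped, and did not pass (-0.50 ± 0.21, adjusted p = 0.122).

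Plk1, the polo kinase that drives spindle and cytokinesis events, was almost constant over the BSA arrays (1046, 1034 and 1043) and lower on every palmitate array (677, 780.5 and 689). Its log2 fold change of -0.54 ± 0.21 did not pass (adjusted p = 0.0887), and scaling to the hybridisation controls brought it past at an adjusted p = 0.0213. Aurka, the centrosomal Aurora kinase, gave 1402, 1411 and 1479 with BSA and 1365, 1704 and 1507 with palmitate. The groups overlapped, and its 95% interval ran from -0.30 to 0.48, which leaves out a 2-fold change in either direction. Tpx2, the microtubule factor that activates Aurka, was at -0.17 ± 0.21 (interval -0.63 to 0.28) by its brightest probe set. Its dimmer one was lower on every palmitate array (961, 856 and 719 against 595, 627 and 401) without passing (-0.66 ± 0.27, adjusted p = 0.108), and the average of the probe sets stood at -0.42 (adjusted p = 0.185). Nek2, a kinase of centrosome separation, was at -0.12 ± 0.32 (interval -0.82 to 0.58), with BSA arrays spread from 353 to 666.

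The spindle checkpoint, which holds chromosomes back until all are attached, was lower in 4 of 6 genes, with 0 higher (median -1.21). Bub1, a checkpoint kinase of the kinetochore, gave 1283, 1715 and 1885 with BSA and 618, 619 and 548 with palmitate. That was a log2 fold change of -1.44 ± 0.22 (adjusted p = 0.000834), and the call ended when the gene's dim second probe set was averaged in (adjusted p = 0.0830). Ttk, the kinase known as MPS1 that starts the checkpoint signal, had signals of 800.5, 1462 and 1107 against 447, 288 and 324 (-1.65 ± 0.30, adjusted p = 0.00262). Mad2l1, which binds and restrains Cdc20, gave 2254, 3407 and 3608 against 1922, 1182 and 1601 (-0.98 ± 0.23, adjusted p = 0.0121). Its call ended without BSA replicate 2 (adjusted p = 0.0608) or BSA replicate 3 (0.0512).

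Bub1b, the BUBR1 pseudokinase of the checkpoint, had the largest fold of all and the least certain. Signals were 1344, 1037 and 1279 with BSA and 64.9, 785 and 366 with palmitate, so the palmitate arrays were all lower but spread widely among themselves. The log2 fold change was -2.19 ± 0.67 (adjusted p = 0.0381), it was -1.18 without palmitate replicate 1, and the call ended without any single BSA array or without palmitate replicate 3 (adjusted p 0.0536 to 0.0896), with no filter (0.0678) and without the intensity trend (0.104). On the log2 scale, it and Cenpe were the only 2 of the 41 whose mean over the palmitate arrays lay under the filter (267.1 as a signal). Bub3, a partner of both BUB kinases, was at -0.19 ± 0.15 (interval -0.51 to 0.12, and past the threshold at an adjusted p = 0.0446 after hybridisation control scaling). Cdc20, which activates the anaphase-promoting complex once the checkpoint is satisfied, gave 2884, 2569.9 and 2359.5 against 2270.3, 3211 and 2522. The groups overlapped, at 0.024 ± 0.18 with an interval of -0.37 to 0.41.

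Spindle kinesins, the motors that build the spindle and move chromosomes, fell in 5 of 6 cases with 0 higher (median -0.93). Kif22, a chromosome-arm motor also called KID, gave 2845, 3517 and 3361 with BSA and 1012, 1236 and 1279 with palmitate (-1.46 ± 0.18, adjusted p = 0.000178), and a second probe set was called too (-1.33 ± 0.30). Kif23, the motor subunit of centralspindlin, gave 1715, 1444 and 856 against 702, 627 and 438 (-1.15 ± 0.29), where the highest palmitate array stood under the lowest BSA array. Kif11, the Eg5 motor that separates the spindle poles, gave 687, 841 and 962 against 492, 407 and 425 (-0.90 ± 0.26, adjusted p = 0.0304). Its other probe sets stood at -0.77 ± 0.27 and -0.51 ± 0.38 and did not pass (adjusted p = 0.0672 and 0.396). Kif20a, a motor of the central spindle, gave 1136, 1265 and 945 against 655, 653 and 743 (-0.70 ± 0.22, adjusted p = 0.0419), and leaving out any single array ended its call (adjusted p 0.0511 to 0.156). So did median scaling (0.0593), 75th percentile scaling (0.0505), quantile normalization (0.0602), no filter (0.0825) and leaving out BSA replicate 1 and palmitate replicate 2 together (0.119).

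The call of Kif23 ended without BSA replicate 1 (adjusted p = 0.0650), BSA replicate 2 (0.0748) or palmitate replicate 3 (0.0629), and without BSA replicate 1 and palmitate replicate 2 together (0.0730). That of Kif11 ended without BSA replicate 2 (0.0959), BSA replicate 3 (0.118), palmitate replicate 2 (0.0610) or palmitate replicate 3 (0.0756), with no filter (0.0720) and with probe sets averaged (0.0816). Kif4, the chromokinesin that works with Prc1 and condensin, was at -0.37 ± 0.25 (interval -0.92 to 0.18) with groups that overlapped. Kif2c, the MCAK enzyme that takes microtubules apart at kinetochores, had probe sets that moved in opposite directions. Its brightest gave 1902, 2172 and 2601 against 1403, 846 and 1238 (-0.96 ± 0.22, adjusted p = 0.0111). Another gave 644, 397 and 594 against 796, 1052 and 798, higher on every palmitate array, though short of the threshold (0.71 ± 0.27, adjusted p = 0.0881). A further one stood at -0.45 ± 0.24. The mean over these and a dim, untested probe set (0.10, signals of 140 to 333) gave -0.15 (adjusted p = 0.693).

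The chromosomal passenger complex, in which Birc5 (survivin), Incenp and the kinase Aurkb correct faulty attachments, is grouped here with Cdca3 and Cdca5. All 5 measured genes of this group fell by their brightest probe sets (median -1.40). Cdca8 (borealin), the other listed subunit, had no value. Birc5 gave 4739, 5309 and 4236 with BSA and 1526, 1826 and 2102 with palmitate (-1.40 ± 0.17, adjusted p = 0.000214). Incenp, the scaffold of the complex, gave 4214, 4794 and 4249 against 1889.6, 1955 and 2909 (-1.00 ± 0.19, adjusted p = 0.00331). Its second probe set had 1302, 1263 and 1133 against 624, 1106 and 612, again without overlap, and did not pass (-0.71 ± 0.26, adjusted p = 0.0720). Cdca5, the cohesin protector sororin, gave 2121, 2663 and 2128 against 652, 722 and 850.4 (-1.64 ± 0.20, adjusted p = 0.000171). The dimmer probe set of Cdca5 passed as well (-1.35 ± 0.34, adjusted p = 0.0169), and its doubled TTTGAA is printed above.

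Cdca3, a trigger of mitotic entry, gave 1544, 1979 and 1781 against 526, 695 and 719 by its brightest probe set (-1.46 ± 0.21, adjusted p = 0.000655). A dimmer one gave 339, 691 and 450.4 against 1015, 347 and 397, with groups that overlapped (0.14 ± 0.43), and another gave 162, 327 and 241 against 477, 532 and 289 (0.84 ± 0.43, adjusted p = 0.199). Averaged over its probe sets, Cdca3 stood at -0.16 and did not pass (adjusted p = 0.741). The average of Incenp took in a dim, untested probe set (0.49, signals of 23.5 to 566.7). It stood at -0.41 and did not pass (adjusted p = 0.480).

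Aurkb gave 976, 1362 and 1029 with BSA and 582, 596 and 424 with palmitate (-1.07 ± 0.25, adjusted p = 0.0108), and its second probe set also passed (-1.86 ± 0.48, adjusted p = 0.0187). Without BSA replicate 2 the first call ended (adjusted p = 0.0621). Aurkb and Aurka are paralogous kinases, and their log2 signals were subtracted on each array to compare their changes. Set to a BSA mean of 0, the difference was -0.16, 0.31 and -0.16 on the BSA arrays and -0.86, -1.15 and -1.46 on the palmitate arrays. The change was -1.16, without overlap of the groups (exact permutation p = 0.1, two-sided, the smallest that 20 splits allow). With the other Aurkb probe set the change was -1.95 (exact permutation p = 0.1, and 0.1 adjusted over these 2 comparisons). Any difference without overlap gives this p, so the test cannot decide whether the changes of the kinases differ. Both comparisons use the same Aurka values, so they are not independent.

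Centromere proteins gave no call. Of 3 genes, 0 passed in limma (1 lower at an unadjusted p under 0.05). Cenpa, the histone variant that marks centromeres, gave 2034, 2769.5 and 2009.8 against 1455, 1541 and 1624, lower on every palmitate array but short of the threshold (-0.55 ± 0.18, adjusted p = 0.0586). It passed when the filter was set at the 60th percentile (adjusted p = 0.0450), with averaging, which tests fewer features (0.0465), and after hybridisation control scaling (0.00563). Cenpe, the kinetochore motor, scattered on both sides (214, 605 and 732 against 401, 92.8 and 281), at -1.06 ± 0.60. Cenpf, a large kinetochore protein of late G2, was at -0.22 ± 0.24 (interval -0.74 to 0.30).

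Genes of condensin and chromosome structure fell in 5 of 7 cases with 0 higher (median -1.14). Mki67, whose protein Ki-67 coats mitotic chromosomes and marks cycling cells, gave 4698, 5809 and 5840.3 with BSA and 1872, 1513 and 2074 with palmitate. The log2 fold change was -1.59 ± 0.17 (adjusted p = 9.31e-05). Ncaph, the kleisin of condensin I, gave 3604, 4970.4 and 4598 against 1400.0, 1533 and 1615 (-1.52 ± 0.17, adjusted p = 0.000118), with a second probe set at -0.90 ± 0.21. Ncapd2, another condensin I subunit, gave 1044, 1032 and 1156 against 175, 388 and 387 (-1.86 ± 0.34), and palmitate replicate 1 was the lowest array for it as for Bub1b.

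The condensin ATPases Smc2 and Smc4 form a dimer. Smc2 gave 3184, 3718 and 4345 against 1585, 1708 and 1771 (-1.14 ± 0.17, adjusted p = 0.000747). Smc4 gave 4154, 5357 and 4801 against 3439.6, 2510.2 and 4175, where palmitate replicate 3 overlapped BSA replicate 1, and did not pass (-0.52 ± 0.20, adjusted p = 0.0847, and 0.0439 without palmitate replicate 3). Its dimmer probe sets were at -0.42 ± 0.29 and -0.77 ± 0.26 (adjusted p = 0.0568). Top2a, the topoisomerase that untangles sister chromatids, gave 6095, 6384 and 6669 against 3279.5, 2974 and 2566 (-1.12 ± 0.15, adjusted p = 0.000372), and averaging it with a dim probe set (signals of 11.0 to 32.2) ended the call (-0.48, adjusted p = 0.458). Hmgb2, a chromatin protein abundant in proliferating cells, was at -0.068 ± 0.19 (interval -0.48 to 0.35), and its second probe set at -0.072 ± 0.25.

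Cytokinesis genes were all below 0, and 3 of 5 passed (median -0.76). Nusap1, which bundles spindle microtubules, gave 2564, 3548 and 2599 with BSA and 1034, 1165 and 1193 with palmitate (-1.35 ± 0.19, adjusted p = 0.000479). Anln, the actin-binding scaffold of the cleavage furrow, gave 3062, 4146 and 4116 against 2196, 1744 and 2708 (-0.78 ± 0.20, adjusted p = 0.0179). The call of Anln ended without BSA replicate 2 (adjusted p = 0.0839), BSA replicate 3 (0.0664) or palmitate replicate 2 (0.0550), and without the intensity trend (0.0547). Prc1, which bundles the central spindle, gave 1967, 2128 and 2036 against 1032, 1578 and 1085 (-0.76 ± 0.20, adjusted p = 0.0214), with a second probe set at -0.87 ± 0.20. Its first call ended without BSA replicate 2 (0.0813), BSA replicate 3 (0.0586), palmitate replicate 1 (0.0790) or palmitate replicate 3 (0.0752).

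Racgap1, the centralspindlin partner of Kif23, gave 1516, 2470.3 and 1899.6 against 1112, 1708 and 849.8 by its brightest probe set. The groups overlapped there, and it did not pass (-0.71 ± 0.27, adjusted p = 0.0841). Its other probe set gave 2122, 1938 and 2238 against 865, 1099.8 and 692 without overlap and passed (-1.27 ± 0.21, adjusted p = 0.00141), as did the brightest without palmitate replicate 2 (adjusted p = 0.0184) and the mean of both (0.00864). Ect2, the exchange factor that activates RhoA at the furrow, was at -0.60 ± 0.24 (adjusted p = 0.0998) and passed without BSA replicate 1 (0.0221).

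Stmn1, the stathmin that destabilises microtubules, had the smallest p of the 41. Signals were 10944, 13782 and 11194 with BSA and 3788, 4187 and 4425 with palmitate, a log2 fold change of -1.53 ± 0.15 (adjusted p = 3.57e-05), and a second probe set stood at -1.55 ± 0.35. Foxm1, the transcription factor of the mitotic programme, gave 926, 1027 and 647 against 593, 486 and 521. All palmitate arrays were lower, and the difference did not pass (-0.68 ± 0.26, adjusted p = 0.0921, and 0.0188 after hybridisation control scaling).

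Agreement between probe sets of a gene could be checked for 18 of the 41. Calls agreed for 12 and differed for 6 (Ccna2, Cdca3, Incenp, Kif11, Kif2c and Racgap1), and signs differed for 3 (Cdca3, Kif2c and Cdc20). Of all 63 tested probe sets of these genes, 33 were lower and 0 higher, beside 10.6% and 8.63% of the 13575 probe sets tested on the array (19.2% in either direction). By the array maker's naming, probe sets ending in _x_at or _s_at can also bind other transcripts. The brightest ones of Ncaph, Kif22, Incenp, Kif2c, Aurkb and Hmgb2 end in _x_at, and those of Stmn1, Prc1 and Bub3 in _s_at. Of these, Ncaph, Kif22, Aurkb, Stmn1 and Prc1 had a second probe set past the threshold in the same direction. The second ones of Kif22 and Aurkb end in _s_at themselves.

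**Figure D4:**
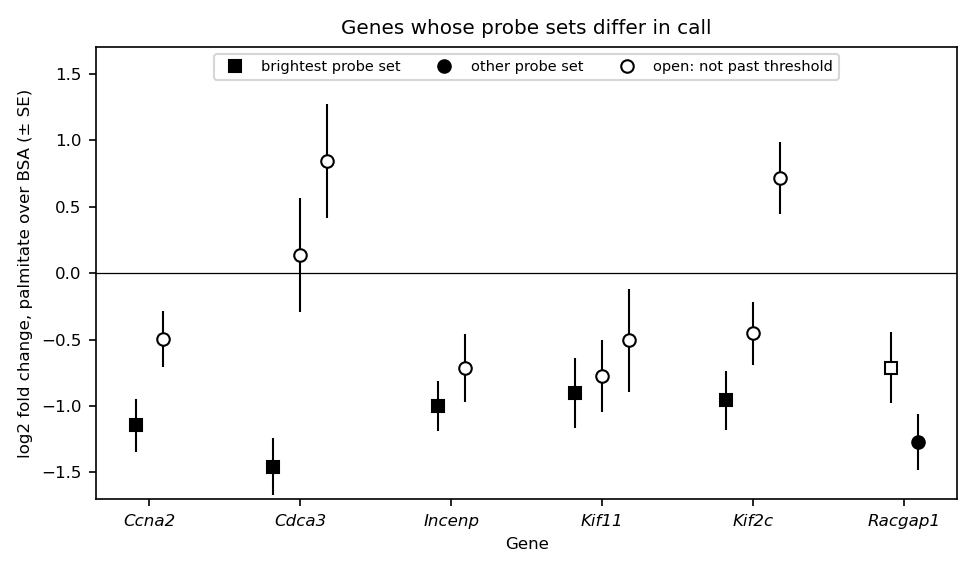
Log2 fold change, palmitate over BSA, of each tested probe set of the 6 genes whose probe sets differed in call; squares are the brightest probe set, circles the others, filled symbols passed at an adjusted p under 0.05, and bars are the SE (3 arrays per group). Dimmer probe sets of Cdca3 and Kif2c lie above 0.

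Other mitotic genes, from a list of 117 with 81 measured, were lower in 21 cases (25.9%) and higher in 0 (39 lower and 2 higher at an unadjusted p under 0.05), with a median of -0.46. All genes had 12.3% lower and 7.92% higher when called, and 19.8% and 13.7% at an unadjusted p under 0.05. Pttg1, the securin that restrains separase, (-1.05 ± 0.16), Shcbp1 (-1.32 ± 0.20), the mitotic kinase gene Pbk (-1.34 ± 0.21) and the kinetochore gene Spc25 (-1.35 ± 0.21) were the clearest falls. Zwint, a kinetochore linker, was higher on every palmitate array (5923, 7358 and 6892 against 4366, 5484 and 4903) without passing (0.45 ± 0.15, adjusted p = 0.0576). The count of 21 was 11 without BSA replicate 2, 13 without BSA replicate 3 and 45 after hybridisation control scaling. By that scaling 26.4% of all genes were lower.

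DNA replication genes, which act in the S phase before mitosis, were lower in 27 of 46 cases (58.7%) and higher in 2, with a median of -0.96. Over all genes, 12.3% were lower and 7.92% higher. Tk1, the thymidine kinase of cycling cells, (-2.60 ± 0.20), the licensing inhibitor gene Gmnn (-1.93 ± 0.21) and the helicase subunit genes Mcm6 (-1.31 ± 0.15) and Mcm7 (-1.16 ± 0.14) fell. So did Mcm2 at -1.18 ± 0.21, and Pcna, the polymerase clamp, stood at -0.34 ± 0.16 (adjusted p = 0.152). Orc4 and Orc2, subunits of the origin recognition complex, rose by 0.81 ± 0.17 and 0.77 ± 0.19, and neither was called after hybridisation control scaling.

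G1 and growth arrest genes moved both ways: 8 of 32 fell (25.0%), 4 rose, and the median was -0.089. The shares over all genes were 12.3% lower and 7.92% higher. The retinoblastoma relative Rbl1 (-1.40 ± 0.20), the CDK inhibitors Cdkn2c (-1.08 ± 0.18) and Cdkn2d (-1.14 ± 0.19) and the growth arrest gene Gas1 (-3.41 ± 0.35) fell. Btg2 (1.01 ± 0.14), Mdm2 (1.11 ± 0.16), Gadd45b (0.94 ± 0.14) and Gadd45a (0.53 ± 0.13) rose. After hybridisation control scaling 11 of the list were lower and 3 higher, beside 26.4% of all genes lower. Cdkn1a, the p21 inhibitor that mediates p53 repression of mitotic genes, gave 30245, 34905 and 29162 with BSA and 35696, 31963 and 35954 with palmitate. The groups overlapped, at 0.14 ± 0.12 (interval -0.13 to 0.40). Cyclin D1 (Ccnd1) was at 0.21 ± 0.15 and Cdkn1b at -0.41 ± 0.22, neither past the threshold, and Cdkn1c was below the filter.

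**Figure D5:**
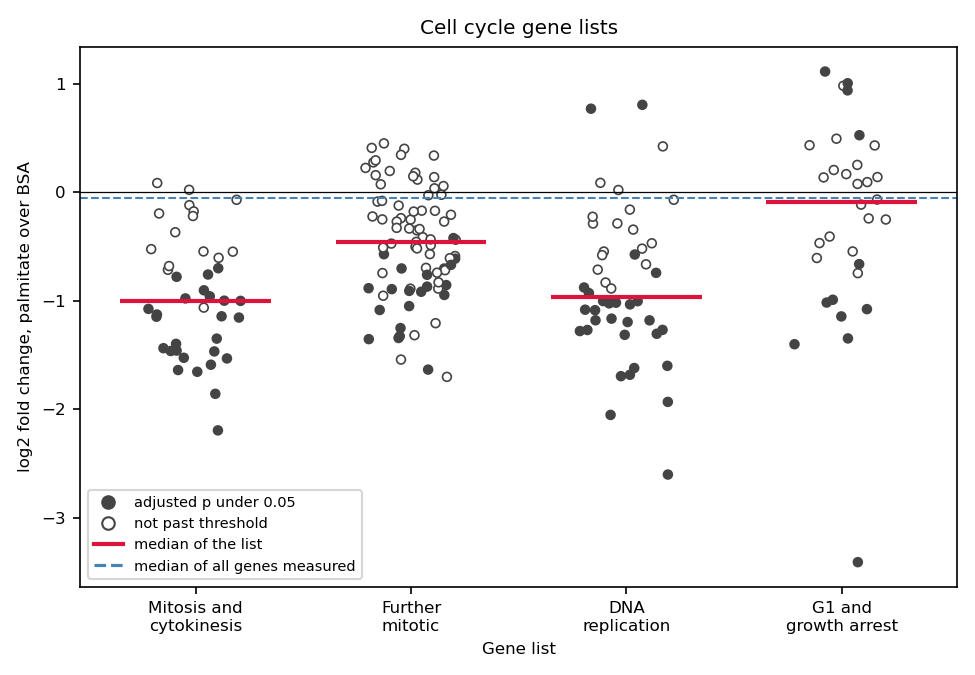
Log2 fold change, palmitate over BSA, of each measured gene of 4 lists (41, 81, 46 and 32 genes, left to right); filled points passed at an adjusted p under 0.05, red bars are list medians and the dashed line is the median of all 7931 genes. The medians of the mitosis and cytokinesis list (-1.00) and of the DNA replication list (-0.96) lie lower than those of the further mitotic (-0.46) and G1 (-0.089) lists; the lists were not tested against each other.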

How the data were processed

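The deposited table holds 1 signal intensity (linear scale) for every probe set and array, which the authors made with MAS5 per the submitters' processing notes; its settings are not given in the sources used here. It held 22690 probe sets, 64 of them controls; of the other 22626, 20380 had 1 gene symbol in the platform annotation, 691 several and 1555 none, and 0 symbols changed on matching to RefSeq (GRCm38.p6).

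Analysis was on log2 signals with no offset. A probe set was tested if its mean log2 signal exceeded the 40th percentile (267.1 as a signal), which 13575 did. A gene stands for its probe set with the highest mean. The groups were compared two-sided with limma 3.58.1 (R 4.3.3), using lmFit and the trend option of eBayes; p-values were adjusted by Benjamini-Hochberg over those 13575, with a threshold of 0.05. Values beside genes are log2 fold changes, palmitate over BSA, ± SE (n = 3 per group), with 95% intervals where given. Precision is limited by the number of arrays. The fit was tested on simulated data.

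The genes and lists were chosen with earlier results of these data known, so no list was tested as a set. Signals are given for the 2 genes of each role with the smallest p, for genes whose probe sets differed in call and for further genes of the list. Of the other lists, up to 4 genes per direction with the smallest p are named, and 7 fixed ones (Cdkn1a, Cdkn1b, Cdkn1c, Ccnd1, Gas1, Mcm2 and Pcna). Zwint, Cav3, Myog, Myod1 and Csf1r were named after their values were seen. Alternatives covered scaling, offset, filter, variance model, probe set averaging, single arrays and a replicate block. Averages took in all probe sets of a gene, also those below the filter. Leaving out BSA replicate 1 and palmitate replicate 2 together was added after seeing the data. Protein sequences were not used here.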

Additional observations from a re-analysis of the deposited data

How the results depend on the processing

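Over 18 alternatives the mitosis and cytokinesis genes called lower numbered 18 to 33, against 26, and none of these settings called one higher in limma. Of the 26, 11 passed in every alternative, 2 more (Ttk and Ncapd2) in all but the filter at the 60th percentile, which removed them from the test, and 18 in every fit without a single array (18 to 24 called, 18 without BSA replicate 2). Their median log2 fold change was -1.10 to -0.88 on leaving out 1 array, -1.33 after hybridisation control scaling, -0.85 with an offset of 200 and -0.81 with probe sets averaged. The count over all probe sets was 1653 with probe sets averaged, where fewer features were tested, and 1579 to 2315 on leaving out 1 array. The further mitotic genes numbered 11 to 24 on leaving out 1 array and 45 after hybridisation control scaling, against 21. DNA replication genes numbered 21 to 29 on leaving out 1 array and G1 genes 9 to 13.

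Reversals of sign were limited to uncalled genes near 0: Aurka at -0.25 and Cdc20 at -0.31 after hybridisation control scaling, Bub3 at 0.13 and Cdc20 at -0.36 with probe sets averaged, Aurka at -0.011 and Cdc20 at -0.041 without BSA replicate 1 and palmitate replicate 2 together. On leaving out 1 array they were Nek2 at 0.11, Cdc20 at -0.045 and Hmgb2 at 0.12 (BSA replicate 3), Hmgb2 at 0.011 (palmitate replicate 1) and Cdc20 at -0.12 (palmitate replicate 2). Over those fits Nek2 ran from -0.35 to 0.11, Hmgb2 from -0.20 to 0.12 and Cdc20 from -0.12 to 0.13. Averaging took in probe sets below the filter, at 1.39 and -0.59 for Bub3 and -1.08 for Cdc20. Their tested probe sets stood at -0.19 and -0.085 for Bub3 and at 0.024 and -0.029 for Cdc20. The cause of the other reversals was not tested.

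No pairing by the shared replicate numbers was seen. Deviations from the group means correlated at -0.23, -0.13 and 0.0091 for numbers 1, 2 and 3, and not every array correlated best with its own number. With 3 arrays per group, these correlations cannot show whether arrays shared a culture or a batch. The replicate block gave 24 mitosis and cytokinesis genes called lower and 1973 probe sets called, against 26 and 2609, and ended the calls of Kif11 (adjusted p = 0.0665) and Kif20a (0.0942).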
